A study of Mus musculus with 36 samples.

Results

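Gm32468 and Gm12406 are noncoding genes of the mouse, and their levels were followed in the livers of 36 male mice, 4 in each of 9 groups. They are 2 of the 49315 genes listed, and were chosen from these data for their difference between W/F and W/W livers on chow. There Gm32468 was the fifth lowest and Gm12406 the highest in W/F by fitted difference among the genes called. That difference, and every comparison that uses the W/W or W/F chow livers, is therefore given as a description, with no test.

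PolyA RNA was sequenced, and levels are in TPM (transcripts per 1000000), a unit set against gene length and the sum of the library. Mice made with CRISPR carry tryptophan (W) or phenylalanine (F) at residue 441 of the liver X receptor alpha (LXRalpha): W/W are homozygous controls, W/F heterozygous and F/F homozygous mutants. Chow mice of each genotype formed a cohort of their own, so diet and cohort cannot be told apart. The remaining mice spent 4 weeks on a diet with much fat and cholesterol, used to bring on MASH (metabolic dysfunction-associated steatohepatitis). In its last 2 weeks these received vehicle or T0901317, a synthetic LXR agonist, at 10 mg/kg daily by gavage. The labels give no gavage for chow mice, so gavage also cannot be told apart from diet in comparisons with chow. All mice were 11 to 12 weeks old. The labels name no tissue-restricted driver of the mutation, and W/W, W/F and F/F differ by that allele alone as labelled.

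LXRalpha binds DNA with the retinoid X receptor and is activated by oxidised cholesterol. In the liver it is known for inducing Srebf1, which encodes the lipogenic regulator SREBP-1c, and Scd1, the stearoyl-CoA desaturase that makes monounsaturated fatty acids. Long noncoding RNAs are transcripts without a long reading frame. An antisense RNA is one transcribed from the strand opposite a coding gene. What Gm32468 and Gm12406 do in liver is not given by the annotation.

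Read numbers were recovered from the steps between low TPM values, which are whole multiples of what a read is worth for a given gene length. The depth recovered was 18.1 to 35.8 M reads per library (M, 1000000), and replicates of a group correlated at 0.962 to 0.987 across genes on the log2 scale. The labels do not say whether the 4 samples of a group came from separate litters or cages, so p-values measure the spread between these samples. Nr1h3, which encodes LXRalpha, stood at 79.1 to 124 TPM and Nr1h2, which encodes LXRbeta, at 20.3 to 50.9 TPM. TPM do not show the residue 441 change, so the genotype labels could not be checked. The hepatocyte markers Alb, Apoa1, Ttr, Cyp2e1, Serpina1c and Hnf4a were each over 1 TPM in every group. Serpina1c shares 79.3% of its exon sequence with other annotated genes.

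Gm32468 (ENSMUSG00000111013) is annotated as an intergenic noncoding RNA of the plus strand, chr10:93084206-93093727 in GRCm38 (GENCODE M21). It has 2 transcripts of 3 exons, 1040 and 472 bases long, whose longest open reading frames from an ATG hold 40 and 47 codons. Its left neighbour Cfap54, which encodes a cilia and flagella protein, is read in the opposite direction and its nearest end lies 2588 bases away. Cdk17, a cyclin-dependent kinase gene, begins 67148 bases to the right. The 2 transcripts start apart but share their second exon, chr10:93091837-93091951, of 115 bases, which is shown because reads over it belong to both.

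Gm32468 shared exon: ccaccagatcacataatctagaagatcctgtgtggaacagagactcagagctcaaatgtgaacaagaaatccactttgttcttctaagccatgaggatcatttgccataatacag

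The window around the first RefSeq start of Gm32468, chr10:93083986-93084285 on the plus strand (GRCm38.p6, credited to RefSeq), is shown because Gm32468 was higher with the LXR agonist in W/W livers. It was searched on both strands for the LXR element called DR4, the letters AGGTCA given again after 4 free bases, with at most 2 mismatches. Capitals mark the match found, which begins 23 bases after the start, has 2 mismatches and overlaps an exact AGGTCA.

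Gm32468 first start: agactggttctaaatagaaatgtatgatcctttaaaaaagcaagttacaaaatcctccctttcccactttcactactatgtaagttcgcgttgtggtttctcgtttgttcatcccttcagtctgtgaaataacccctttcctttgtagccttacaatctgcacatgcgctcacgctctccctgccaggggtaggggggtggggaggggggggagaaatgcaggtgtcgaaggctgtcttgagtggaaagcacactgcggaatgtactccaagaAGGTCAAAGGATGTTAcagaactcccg

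Of 32851 RefSeq promoter windows of 300 bases, 3.02% held such a match and 16.3% held an exact AGGTCA. The search found none in the window at the other RefSeq start of Gm32468, chr10:93084987-93085286, and none in the 3 windows of Srebf1. Neither TCACNCCAC, searched as a sterol element, nor CACGTG was in either window of Gm32468. These are in 1.24% and 7.15% of all windows. A match is a run of letters, not a site shown to be bound. Of the 2 noncoding genes, Gm32468 matched the promoter table and Gm12406 did not.

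Gm12406 (ENSMUSG00000084761) is annotated as antisense, on the plus strand at chr4:41639378-41641416 (GRCm38, GENCODE M21). Its single transcript has 697 bases in 2 exons, with a longest open reading frame of 52 codons. It overlaps Enho, which encodes the secreted peptide adropin, over 947 bases, on the opposite strand, but the exons of both genes share no base. The first exon of Gm12406, chr4:41639378-41639532, lies in the intron of Enho (chr4:41639002-41639913) and is shown because it sits inside the coding gene.

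Gm12406 exon within the Enho intron: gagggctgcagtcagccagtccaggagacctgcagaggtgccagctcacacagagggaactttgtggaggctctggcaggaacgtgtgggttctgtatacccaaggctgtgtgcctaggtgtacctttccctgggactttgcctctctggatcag

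The second exon begins 550 bases upstream of the annotated start of Enho. Dnaic1, an axonemal dynein intermediate chain gene of the same strand as Gm12406, ends 1220 bases before it, and Gm12405, also annotated as antisense, begins 769 bases after it. The strand setting of the authors' counting is not given in the sources used here. Without strand, reads from unspliced Enho RNA over the first exon of Gm12406 cannot be told apart from reads of Gm12406. Neither noncoding gene shared a run of 50 bases with a transcript of another gene.

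Gm32468 was high in W/W livers and near the limit of detection in most mutant livers. In W/W it stood at 15.4, 6.13, 7.63 and 15.9 TPM on chow, at 26.3, 14.4, 7.77 and 6.12 on the MASH diet with vehicle, and at 91.6, 119, 90.5 and 84.4 with T0901317. All 4 treated W/W livers lay above every other liver, while the chow and vehicle W/W livers overlapped. In W/F it stood at 1.23, 0.986, 0.862 and 0.975 TPM on chow, at 0.284, 0, 0 and 0 with vehicle, and at 3.78, 2.59, 1.61 and 2.12 with T0901317. These 3 W/F groups did not overlap each other, and all 12 W/F livers lay under all 12 W/W livers. In F/F it stood at 0.458, 0.568, 0.216 and 0.504 TPM on chow, at 0.423, 0, 0 and 0.385 with vehicle, and at 0.339, 0, 0.316 and 0.257 with T0901317. The F/F groups overlapped one another.

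**Figure D1:**
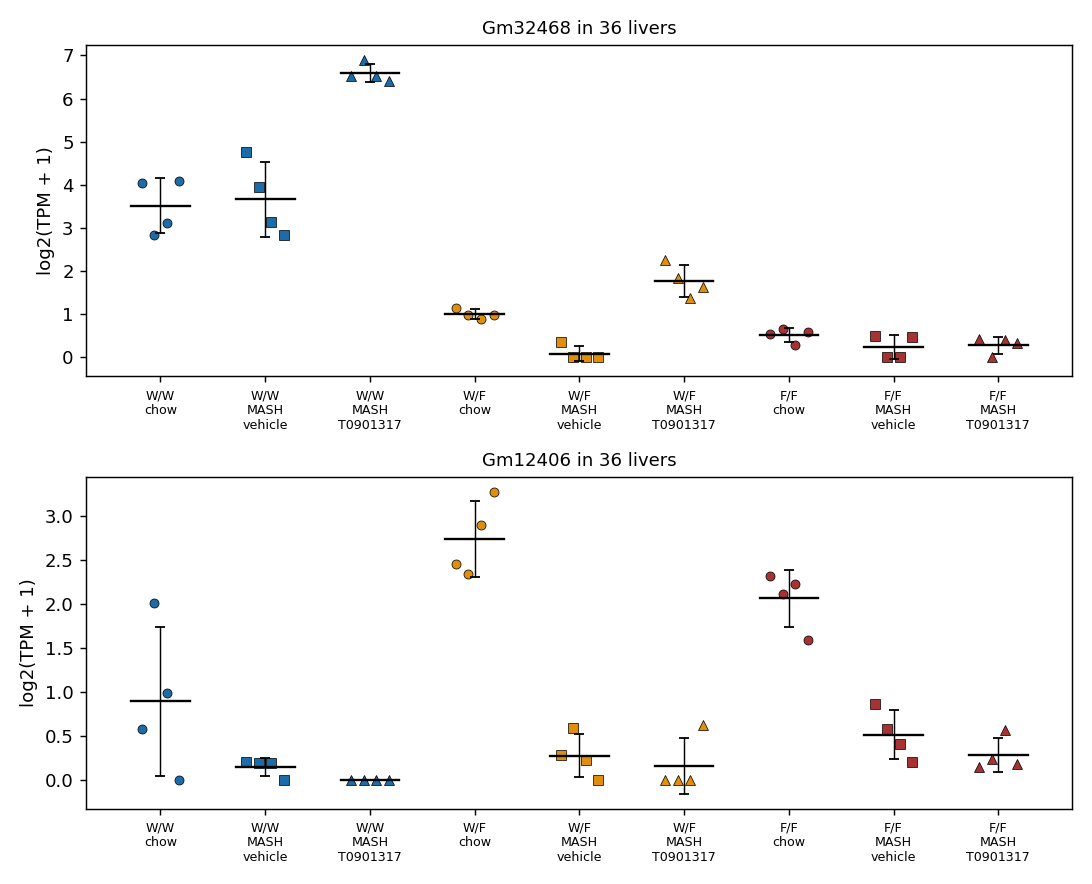
Level of Gm32468 (top) and Gm12406 (bottom) as log2(TPM + 1) in each of 36 livers, by genotype and treatment; points are livers, bars group means, whiskers SD with n = 4. Gm32468 is highest in the W/W T0901317 livers, at 84.4 to 119 TPM, and Gm12406 in the W/F chow livers, at 4.06 to 8.70 TPM.

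By group mean, Gm32468 ran from W/W with T0901317 (96.3 ± 15.2 TPM, SD, n = 4) through W/W with vehicle (13.6 ± 9.15) and W/W on chow (11.3 ± 5.13) to W/F with T0901317 (2.53 ± 0.928) and W/F on chow (1.01 ± 0.153). The 4 lowest groups were F/F on chow (0.437 ± 0.154), F/F with T0901317 (0.228 ± 0.156), F/F with vehicle (0.202 ± 0.234) and W/F with vehicle (0.0710 ± 0.142). Neighbours in this order overlapped for vehicle and chow in W/W and among the 4 lowest groups, and not elsewhere. A single read was worth 0.0894 to 0.109 TPM on group average, so these 4 groups rest on 18, 11, 8 and 4 reads. Intervals and limits in reads cover counting error only. The W/W groups rest on 467 reads on chow, 577 with vehicle and 4388 with T0901317. Among the 1622 noncoding genes that were tested, Gm32468 ranked 11 by mean level in W/W with T0901317, 404 in W/F with T0901317 and 1607 in W/F with vehicle.

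Both noncoding genes were tested in 13 comparisons that use neither the W/W nor the W/F chow livers. The test was limma on log2(TPM + 1), two-sided, adjusted by Benjamini-Hochberg over the 16638 genes that reached 1 TPM in 4 or more livers, and a gene was called at an adjusted p under 0.05. Gm32468 was called in 10 of 13 comparisons, 2 higher and 8 lower, and Gm12406 in 1. Gm12406 passed the filter on low values with 9 livers of at least 1 TPM, all on chow. The 4 W/F and the 4 F/F chow livers each met it without the others. Differences on this scale understate changes of low levels.

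T0901317 raised Gm32468 in W/W and W/F livers. In W/W the difference was 2.92 on the log2 scale (SE 0.281, limma adjusted p = 8.64e-09), where 10.8% of all genes were called. In W/F it was 1.69 (adjusted p = 5.48e-06), where 65.9% of all genes were called, most of them lower, with a median of -0.49 over all genes. In F/F it was 0.04, with a 95% confidence interval of -0.53 to 0.62 (adjusted p = 0.921), and 35.1% of all genes were called. Scd1 and Srebf1 rose with T0901317 in the same F/F livers, by 5.36 (limma adjusted p = 6.23e-14) and 2.43 (1.72e-09). Gm32468 had the second highest difference with T0901317 in W/W among the 1622 noncoding genes, of which 90 were called.

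The F/F livers had 11 reads of Gm32468 with T0901317 and 8 with vehicle, a ratio of 1.19 per depth (95% interval 0.435 to 3.40), or 1.79 without F/F vehicle replicate 1. The ratio was 7.06 (6.47 to 7.71) in W/W and 27.7 (10.5 to 103) in W/F, where all 4 vehicle reads came from 1 liver. The differences between these responses were called on the scale fitted: -1.23 for W/F minus W/W (limma adjusted p = 0.00891, 58.5% of all genes called), -2.88 for F/F minus W/W (5.45e-06, 30.4% called) and -1.65 for F/F minus W/F (0.00503, 19.2% called). The first of these rests on the scale. It turned to 1.13 (adjusted p = 0.206) with a pseudocount of 0.1 and to 2.05 (0.103) on recovered reads. The W/F vehicle mean of 0.0710 TPM was itself under that pseudocount. F/F minus W/W kept its sign on recovered reads, at -2.37, but was not called (adjusted p = 0.155).

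On the MASH diet both mutants had less Gm32468 than controls. With vehicle, W/F was lower than W/W by -3.58 (SE 0.281, limma adjusted p = 6.84e-12), where 68.5% of all genes were called, and F/F by -3.42 (4.55e-12), where 76.5% were called. Most of those calls were higher in the mutants, and 6.83% and 7.13% of all genes were called lower, or 25.5% and 28.1% after rescaling of the libraries to a common median ratio. F/F and W/F with vehicle differed by 0.15 (adjusted p = 0.739, 21.3% of all genes called). Both rest on under 10 reads, so a difference between them was not detectable at this depth.

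With T0901317 the 3 genotypes separated. W/F was lower than W/W by -4.81 (limma adjusted p = 1.25e-13), against 9.88% of all genes called, and F/F by -6.31 (3.04e-16), against 63.2% called. In reads per depth W/W stood 37.0-fold over W/F (95% interval 30.8 to 44.9) and 388-fold over F/F (217 to 778). F/F was lower than W/F by -1.5 (adjusted p = 4.63e-05), where 62.6% of all genes were called and 4.08% were called lower, or 18.9% after rescaling. In reads this was 10.5-fold (5.65 to 21.6). Among the 1622 noncoding genes Gm32468 had the lowest difference from W/W in both mutants with T0901317.

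MASH vehicle against chow could be tested in F/F only, where Gm32468 differed by -0.27 (limma adjusted p = 0.427), with 55.8% of all genes called. Diet, gavage and cohort cannot be told apart in that comparison. As a description, W/W vehicle and chow livers differed by 0.15 and overlapped, and W/F vehicle livers lay under all W/F chow livers, by -0.92. The chow difference that chose the gene was -2.51 for W/F minus W/W, and F/F minus W/W on chow was -3.0, without overlap.

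**Figure D2:**
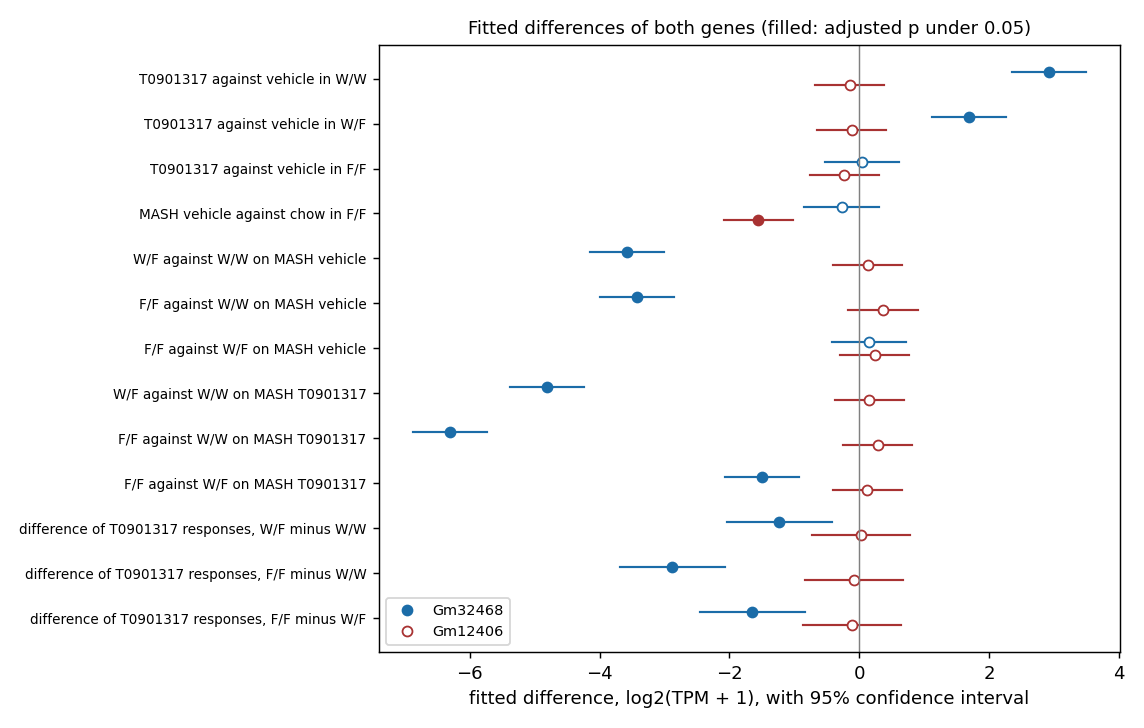
Fitted differences of Gm32468 and Gm12406 on the log2(TPM + 1) scale (x axis) in 13 comparisons (y axis), as points with 95% confidence intervals; filled points have a limma adjusted p under 0.05. Gm32468 is filled in 10 comparisons and reaches -6.31 between F/F and W/W livers given T0901317. Gm12406 is filled only for MASH vehicle against chow in F/F, at -1.55.

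Summed markers of cell types differed between these groups. The summed level of 8 macrophage markers was 93.6 to 133 TPM in W/W with vehicle, 634 to 1045 in W/F with vehicle and 817 to 1065 in F/F with vehicle, with 7, 7 and 5 of 8 markers over 1 TPM. Those under 1 TPM in F/F with vehicle were Clec4f, Marco and Timd4. In W/W with vehicle it was Trem2, so the markers in the sum did not all move the same way. With T0901317 the macrophage sum was 91.8 to 178 in W/W, 64.2 to 307 in W/F and 320 to 485 in F/F. The summed hepatocyte markers were 77919 to 99724 TPM in W/W, 58100 to 66797 in W/F and 34898 to 39348 in F/F with vehicle. Summed stellate cell markers were 91.4 to 147 TPM in W/W and 936 to 1141 in F/F with vehicle. In the same 2 groups cholangiocyte markers were 6.02 to 8.73 and 121 to 153 TPM, and neutrophil markers 2.02 to 6.82 and 121 to 349. No macrophage or hepatocyte marker was at 0 in all livers of a group. The part of these shifts in the Gm32468 differences was not tested. In bulk liver, fewer cells of a type and less RNA per cell cannot be told apart. With T0901317, the summed levels of macrophage and hepatocyte markers overlapped between W/F and W/W, but not between F/F and W/W. The hepatocyte sums there were 52550 to 70884 TPM in F/F and 77622 to 88016 in W/W.

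Scd1 and Srebf1 had the same highest group as Gm32468, but not the same order below it. Scd1 stood at 21335 to 22177 TPM in W/W with T0901317, 5889 to 11171 with vehicle and 1423 to 5447 on chow. In W/F with vehicle Scd1 was at 322 to 616 TPM and in F/F with T0901317 at 491 to 697, both above W/F on chow at 21.8 to 63.5. Gm32468 ran the other way across these groups: every W/F chow liver, at 0.862 TPM or more, was above every liver of both others, at 0.339 TPM or less. Srebf1 in W/F with T0901317, at 341 to 470 TPM, overlapped W/W with vehicle at 186 to 599 and exceeded W/W chow at 116 to 134, whereas Gm32468 in those W/F livers was at most 3.78 TPM and in both W/W groups at least 6.12 TPM.

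Per 1000 TPM of Srebf1 in the same liver, Gm32468 stood at 143 ± 25.8 TPM (SD, n = 4) in W/W with T0901317, 39.1 ± 25.5 with vehicle and 90.0 ± 37.2 on chow. It stood at 6.32 ± 1.78 in W/F with T0901317 and 1.78 ± 1.2 in F/F with T0901317. Neither range overlapped the W/W ranges. W/F on chow, at 16.3 to 29.6, and F/F on chow, at 16.4 to 50.2, overlapped W/W with vehicle, at 10.2 to 71.9. F/F with vehicle, at 0 to 18.8, also overlapped W/W with vehicle. W/F with vehicle, at 0 to 3.52, lay under all W/W ranges. No mutant liver reached the W/W chow range, which began at 52.7. Per 1000 TPM of Scd1, Gm32468 stood at 4.42 ± 0.647 in W/W with T0901317 and at 31.0 ± 14 in W/F on chow, where Scd1 was low. On that scale W/F with T0901317, at 0.945 to 1.68, overlapped W/W with vehicle, at 0.954 to 4.46. Among W/W vehicle livers the order differed from that of Scd1 and Srebf1. Replicate 1 had the most Gm32468, 26.3 TPM, and the least Scd1, 5889 TPM, whereas replicate 4 had the least Gm32468, 6.12 TPM, and the most Srebf1, 599 TPM. Across 36 livers the Pearson r of log2(TPM + 1) was 0.80 with Scd1 and 0.74 with Srebf1, and for deviations from the group means 0.09 and 0.14. These r are descriptions over livers that fall into groups, and so carry no p.

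**Figure D3:**
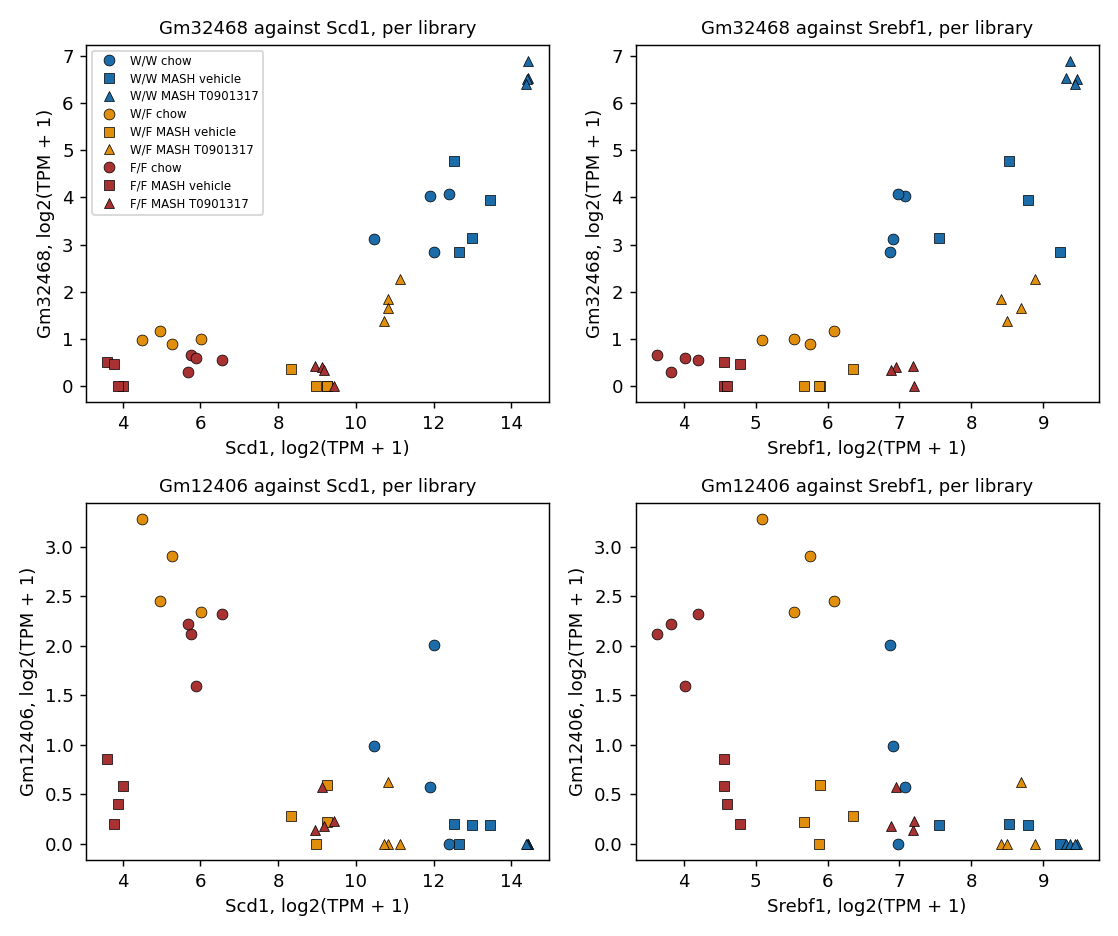
Gm32468 (top) and Gm12406 (bottom) against Scd1 (left) and Srebf1 (right), all as log2(TPM + 1), with 1 point per liver, colour for genotype and shape for treatment. Gm32468 is near 0 in W/F vehicle and F/F T0901317 livers whose Scd1 is 322 to 697 TPM, and Gm12406 is under 1 TPM in all 24 MASH livers whatever their Scd1.

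A list of 32 LXR receptors, LXR targets and lipid synthesis genes, chosen with earlier results of these data known, is given for comparison. Of these, 24 were higher and 1 lower with T0901317 in W/W, with a median of 1.38 against 0.06 over all genes. Of all genes 7.87% were called higher and 2.91% lower in that comparison. Pnpla3, a lipid droplet lipase gene, rose by 4.53 there and Fasn, the fatty acid synthase gene, by 2.67, while Scd1 rose by 1.51 and Srebf1 by 0.88, beside 2.92 for Gm32468. The gene that fell was Enho, at -2.41. In W/F 11 of the 32 rose and 9 fell with T0901317, and 21 and 4 after rescaling, which moved the median over all genes from -0.49 to -0.04. Over all genes 6.59% were called higher and 59.3% lower in W/F, or 23.6% and 27.1% after rescaling. In F/F 14 of the 32 rose and 3 fell with T0901317, and 19 and 1 after rescaling. Over all genes 3.95% were called higher and 31.2% lower in F/F, or 8.32% and 7.98% after rescaling. With T0901317, 20 of the 32 were lower and 1 higher in W/F than in W/W, with a median of -1.63 against 0.00 over all genes. There 6.23% of all genes were called lower and 3.65% higher. Pnpla3 was lower by -4.69, Acacb, an acetyl-CoA carboxylase gene, by -4.07 and Scd1 by -3.53, beside -4.81 for Gm32468. In F/F with T0901317, 23 were lower and 4 higher than in W/W, with a median of -1.55 against 0.43 over all genes, and 27 and 3 after rescaling. Of all genes 6.96% were called lower and 56.3% higher there, or 22.7% and 24.2% after rescaling. The 4 higher ones were Enho, Abcg1, Mylip and Nr1h2.

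Among the 5 genes whose pattern over 36 livers was most like Gm32468, by Pearson r over 11195 genes with at least 5 TPM in a group, were Acacb (0.94), Fasn (0.92), Pdk1 (0.91) and Ugt1a5 (0.91). Pdk1 encodes a pyruvate dehydrogenase kinase. Ugt1a5, a glucuronosyltransferase gene, shares 64.0% of its exon sequence with other annotated genes. Scd1 ranked 71 and Srebf1 151. The noncoding genes most like it were Gm34654 (0.90), 1700092C10Rik (0.87) and BC049987 (0.85). These r include the W/W and W/F chow livers whose difference chose Gm32468. Gm34654 ranked 3 and 1700092C10Rik 6 among the genes called lower in W/F in that difference. The least like were Memo1 (-0.91), Agt (-0.91), Gclm (-0.89), Ahsg (-0.89) and Prdx4 (-0.88). After rescaling of the libraries, 1 of the 5 highest and 0 of the 5 lowest remained in their 5, so the lists depend on the scaling.

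Of the expressed neighbours, Cdk17 differed with T0901317 in W/W by 0.14 (limma adjusted p = 0.449) and in W/F by -0.98, or -0.44 after rescaling. In W/F 59.3% of all genes were called lower, with a median of -0.49. Cfap54, the nearest gene, did not pass the filter on low values.

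Gm12406 was a gene of the chow livers. On chow it stood at 0.491, 3.03, 0.982 and 0 TPM in W/W, at 4.47, 4.06, 6.48 and 8.70 in W/F and at 4.01, 3.33, 3.67 and 2.02 in F/F. All W/F chow livers lay above all livers of every other group, and F/F and W/W chow livers overlapped because 1 W/W liver was at 3.03. With vehicle it stood at 0.148, 0.145, 0.145 and 0 TPM in W/W, at 0.219, 0.506, 0.167 and 0 in W/F and at 0.816, 0.496, 0.327 and 0.148 in F/F. With T0901317 it was listed at 0 in all 4 W/W livers, at 0, 0, 0 and 0.546 in W/F and at 0.105, 0.176, 0.487 and 0.132 in F/F. No MASH liver of any genotype reached 1 TPM.

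By group mean the order was W/F chow (5.93 ± 2.13 TPM, SD, n = 4), F/F chow (3.26 ± 0.870), W/W chow (1.12 ± 1.33), F/F vehicle (0.447 ± 0.284), F/F T0901317 (0.225 ± 0.177), W/F vehicle (0.223 ± 0.211), W/F T0901317 (0.136 ± 0.273), W/W vehicle (0.109 ± 0.0730) and W/W T0901317 (0). From F/F chow downward every group overlapped the next. The chow groups held 141, 88 and 25 reads in W/F, F/F and W/W, and the 6 MASH groups held 0 to 11.

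In F/F livers Gm12406 was lower on the MASH diet with vehicle than on chow, by -1.55 (SE 0.261, limma adjusted p = 9.76e-06), without overlap. Of all genes 55.8% were called there and 9.27% were called lower, or 21.3% after rescaling. In reads the chow livers stood 7.53-fold higher (95% interval 4.01 to 15.6). As descriptions, W/F chow stood 27.6-fold over W/F vehicle in reads, or 43.4-fold without W/F vehicle replicate 2. The W/F and W/W chow livers chose the gene, so ratios with them carry no interval. W/W chow stood at least 9.87-fold over W/W with T0901317, taking a limit of 3 reads over that group, or at least 4.50-fold without W/W chow replicate 2, which held 16 of the 25 reads. Between F/F chow and vehicle livers the summed macrophage markers went from 93.9 to 153 TPM up to 817 to 1065, and the summed hepatocyte markers from 69727 to 89323 TPM down to 34898 to 39348. Their part in this difference was not tested.

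T0901317 gave no called difference in Gm12406, at -0.15 in W/W (limma adjusted p = 0.818), -0.12 in W/F (0.710) and -0.23 in F/F (0.509). Between genotypes, F/F minus W/W was 0.36 (0.205) with vehicle and 0.28 (0.352) with T0901317, neither called. In reads, F/F with vehicle held 11 and W/W 3, a ratio of 4.05 per depth (95% interval 1.07 to 22.6, counting error only). F/F replicate 1 held 5 of the 11. With T0901317 F/F held 6 reads and W/W 0, at least 2.06-fold at a limit of 3 reads. With vehicle the intervals for W/F over W/W (0.424 to 12.3) and F/F over W/F (0.691 to 6.71) spanned 1. With vehicle the lowest F/F liver and the highest W/W liver held 1 read each, and with T0901317 the F/F livers held 1 to 3 reads and the W/W livers 0. W/F and W/W differed by 0.13 (0.679) with vehicle and by 0.16 (0.804) with T0901317. F/F and W/F differed by 0.24 (0.557) and 0.13 (0.697). The differences of the T0901317 responses were 0.03, -0.08 and -0.11 and were not called. With 0 to 11 reads a group, smaller differences were not detectable at this depth. The 95% confidence interval in W/W with T0901317 ran from -0.68 to 0.39.

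Gm12406 did not track Scd1 or Srebf1 in one direction. On chow it was highest where Scd1 was low, in W/F and F/F. On the MASH diet it was under 1 TPM both in F/F vehicle livers, whose Scd1 of 11.2 to 15.0 TPM was below that of any chow liver, and in W/W livers with T0901317, whose Scd1 was above 21335 TPM. Over 36 livers r was -0.59 with Scd1 and -0.61 with Srebf1.

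The nearest genes, Dnaic1 and Gm12405, also had higher group means on chow than on the MASH diet. Dnaic1 stood on chow at 0.990 ± 0.971 TPM (SD, n = 4) in controls, 5.57 ± 4.17 in heterozygotes and 9.77 ± 6.10 in homozygous mutants, and its highest group mean on the MASH diet was 0.721. Gm12405 stood at 4.64 ± 1.27, 2.15 ± 0.935 and 1.36 ± 0.764 on chow in W/F, F/F and W/W, and at most at 0.129 on the MASH diet. F/F livers on the MASH diet with vehicle had less Dnaic1 than on chow, by -2.49 (limma adjusted p = 6.19e-08), less Gm12405, by -1.61 (6.25e-08), and less Enho, by -1.34 (1.04e-05), all without overlap. Of the genes further outward, Fam219a rose by 1.36 (8.26e-09), Il11ra1 by 0.86 (1.13e-06) and Cntfr by 0.51 (0.0350). Over all genes 46.5% were called higher and 9.27% lower there, with a median of 0.32. After rescaling these rises were 1.02, 0.52 and 0.27, the last not called (0.278), with 25.7% of all genes called higher and 21.3% lower. Il11ra1 shares 46.3% of its exon sequence with other annotated genes. The last exon of Dnaic1 overlaps Enho by 15 bases on the opposite strand.

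Enho stayed above 1 TPM on average in 5 of the 6 MASH groups and was near the limit of detection in W/W with T0901317. It stood on chow at 34.1 ± 12.4 TPM in controls, 94.4 ± 24.3 in heterozygotes and 92.1 ± 14.2 in homozygous mutants. In that order of genotypes it stood at 6.81 ± 2.31, 22.1 ± 0.990 and 35.6 ± 4.79 with vehicle, and at 0.455 ± 0.322, 11.8 ± 3.40 and 20.8 ± 4.45 with T0901317. T0901317 lowered Enho in W/W by -2.41 (limma adjusted p = 6.08e-09), in W/F by -0.90 (9.71e-04) and in F/F by -0.76 (0.0108). The last 2 were lost after rescaling, at -0.33 (0.272) and -0.50 (0.169). By group mean W/W was the lowest genotype for both Enho and Gm12406 in each treatment, although for Gm12406 no MASH difference was called. F/F vehicle livers held 31.7 TPM of Enho or more, with Gm12406 at 0.816 TPM or less.

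**Figure D4:**
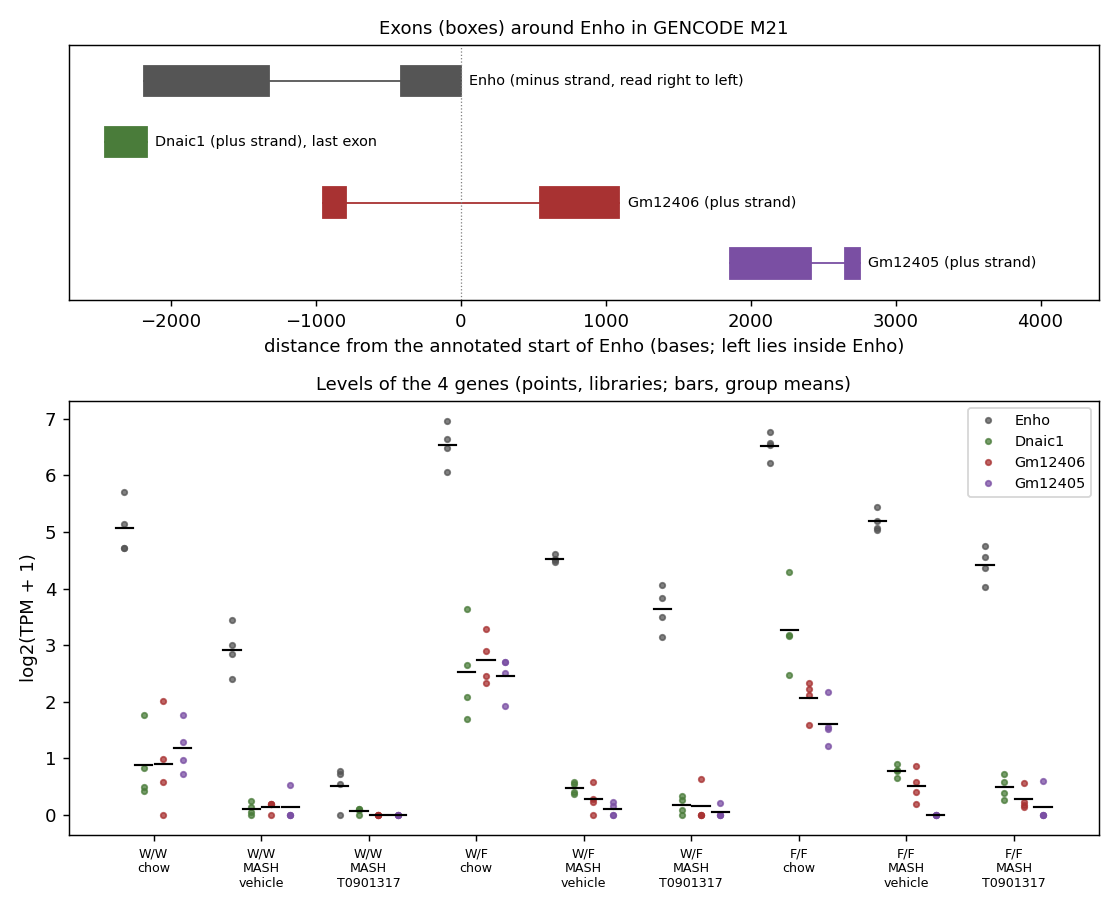
Exons of Enho, Dnaic1 (last exon), Gm12406 and Gm12405 by distance in bases from the annotated start of Enho (top), and their levels as log2(TPM + 1) by group (bottom), with points for livers and bars for group means. Gm12406, Dnaic1 and Gm12405 are above 1 TPM on average in most chow groups and under it in all MASH groups, while Enho stays at 6.81 TPM or more in every group but W/W with T0901317.

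By Pearson r among the same 11195 genes, Dnaic1 was the gene most like Gm12406 (0.89), and it also ranked first after rescaling. Mvk, which encodes mevalonate kinase, followed at 0.87, then Gm13502 (0.85), Slc35e2 (0.84) and Cep85l (0.83). All of the exon sequence of Gm13502 also occurs in other annotated genes, mostly Idi1. Enho ranked 83 (0.74). Gm12405 had an r of 0.92 but did not reach 5 TPM in any group. These r include the W/W and W/F chow livers whose difference chose Gm12406. Dnaic1 ranked 3 and Enho 6 among the genes called higher in W/F in that difference. For deviations from group means r was 0.57 with Dnaic1, 0.54 with Enho and 0.49 with Gm12405. The least like were Adam11 (-0.86), Rab20 (-0.83), Apoe (-0.82), Ormdl3 (-0.80) and Sulf2 (-0.80), and Rab20 shares 22.9% of its exon sequence with other genes. After rescaling, 3 of the 5 highest and 0 of the 5 lowest remained in their 5, so these lists also depend on the scaling. The noncoding genes most like it were Gm13522 (0.83), 3110045C21Rik (0.74) and A730017L22Rik (0.73), the last of which shares 27.0% of its exon sequence.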

How the data were processed

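PolyA RNA from 36 livers was analysed. The authors deposited 1 table of TPM, per its column names. Per the submitters' processing notes, Trimmomatic 0.36, STAR 2.5.2b and featureCounts of Subread 1.5.2 were used with GRCm38 (mm10). TPM do not correct for a change in composition, so comparisons were repeated after dividing each library by its median ratio to the geometric mean over 14786 genes. Reads were recovered from the TPM steps with GENCODE M21 exon lengths: 93.7% to 95.6% of genes with under 20 reads lay within 0.1 of a whole number, where chance gives 20%. Of the 49315 genes, 49056 matched M21.

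Values were fitted as log2(TPM + 1) with limma 3.58.1 in R 4.3.3, with 1 mean for each of 9 groups and moderated variances that follow the mean. The fit was tested on simulated data. Both noncoding genes, the list of 32 LXR and lipogenic genes and the marker lists were chosen with earlier results of these data known. Named genes were both members, Scd1, Srebf1, the 2 LXR genes, the list, neighbouring genes and, for each member, the 5 highest and 5 lowest by Pearson r and the 3 highest noncoding genes. Of the genes this rule names, 1 is not reported here. Dnaic1 and Gm12405 were named in full after their values were seen. Ratios of reads carry exact 95% intervals, which cover counting error only, except those that use the W/W or W/F chow livers. Replicate numbers did not pair the livers: 0 of 10 comparisons met the criterion, with correlations of deviations of -0.17 to 0.30. No library was identical to another. Alternatives were a pseudocount of 0.1, a filter of 5 TPM, no filter, rescaled TPM, array quality weights, the replicate block, a fit of only the groups compared, the omission of each liver, and, added after seeing the data, voom on recovered reads and ratios of reads without each liver.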

Additional observations from a re-analysis of the deposited data

Results flagged for a closer look

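Gm32468 in W/F livers with vehicle was at 0.284 TPM in replicate 1, far from the other 3 livers at 0. Gm12406 in W/F livers with T0901317 was at 0.546 TPM in replicate 4, with the other 3 at 0. Gm12406 in W/W livers with vehicle was at 0 in replicate 4, while the other 3 lay at 0.145 to 0.148 TPM, which is 1 read each. The cutoff flags about 1 group in 20 by chance for values with a normal spread, which counts this low do not have. A group with 3 livers at 0 and 1 above is always flagged. Each of these gaps rests on at most 4 reads.

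The response of Gm32468 to T0901317 differed between genotypes by limma's test of the difference itself: by -1.23 between W/F and W/W, by -2.88 between F/F and W/W and by -1.65 between F/F and W/F. The first of these turned to 1.13 with a pseudocount of 0.1 and to 2.05 on recovered reads, neither called, and was not called after rescaling, at -0.96 (adjusted p = 0.0707).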

How the results depend on the processing

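The difference of the T0901317 responses of Gm32468 between W/F and W/W turned to 1.13 with a pseudocount of 0.1 and to 2.05 on recovered reads, and lost its call after rescaling at -0.96. The difference between F/F and W/W lost its call on recovered reads at -2.37. For Gm12406, never called in these, F/F minus W/W turned to 0.25 with a pseudocount of 0.1, 0.057 after rescaling and 0.57 on recovered reads, and F/F minus W/F to 0.022 with a pseudocount of 0.1. The cause was not tested. All other tested results of both genes kept direction and call. At 5 TPM in at least 4 livers Gm12406 was not tested.

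Leaving out each liver changed no call of either gene. The sign turned for Gm32468 with T0901317 in F/F (-0.039 to 0.14). It also turned for the differences of responses of Gm12406 (-0.13 to 0.13 for W/F minus W/W, -0.19 to 0.033 for F/F minus W/W and -0.22 to 0.045 for F/F minus W/F). Gm12406 in W/F against W/W with T0901317 (0 to 0.21) came to 0 without W/F replicate 4, the only one of these livers above 0.

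With the replicate block, the T0901317 response of Gm32468 in W/W was 2.92 and its difference between W/F and W/W -1.23 (limma adjusted p = 0.00380), 1852 genes were called with T0901317 in W/W against 1794, and the block changed no call of either gene.

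Counts over all genes moved by over 1.5 times after rescaling for T0901317 in F/F (5841 to 2712), F/F against W/F with vehicle (3552 to 1762) and with T0901317 (10409 to 6708), and F/F minus W/W responses (5065 to 2900, and 2893 on recovered reads). With array quality weights they moved for W/F against W/W with T0901317 (1644 to 2920) and F/F minus W/F responses (3191 to 5156). Depth limits Gm12406 on the MASH diet and Gm32468 in mutants, at 0 to 18 reads a group except W/F on chow and W/F with T0901317.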
